A study of Mus musculus with 4 samples.

Results

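Cholesterol and fatty acid synthesis genes were followed in mouse CD4+ T cells that were grown under T helper 1 (Th1) conditions with or without interleukin-16. The set was chosen by gene symbol. It holds 31 genes out of 26334 rows in the deposited table: 18 enzymes of sterol synthesis, 5 genes of the SREBP control system, 5 genes of fatty acid synthesis and 3 genes of sterol transport. All 31 were in the table, none had a second row under a copy name, and all 31 were among the 11882 rows that reached 1 FPKM (fragments per kilobase of transcript, scaled to library depth, so a level per transcript length) in at least 2 libraries and were therefore tested.

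Naive CD4+ T cells from mouse spleen were cultured for 5 days under Th1-polarizing conditions and received either PBS, the vehicle (n = 2 libraries), or IL-16, a cytokine that binds CD4 (n = 2 libraries). The labels name no strain, age, sex or IL-16 dose. Nor do they tell whether libraries of the same group were grown as separate cultures or taken from separate mice, so that the p-values measure a spread that may be technical only.

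A mammalian cell makes cholesterol from acetyl-CoA through the mevalonate pathway, then squalene and lanosterol, and makes fatty acids from acetyl-CoA through malonyl-CoA. Both branches are switched on by the SREBP transcription factors, which wait in the endoplasmic reticulum bound to the escort protein SCAP. When sterols are plentiful, INSIG proteins hold SCAP in place. When sterols are scarce, SCAP carries SREBP to the Golgi, where proteases release the active factor. Excess sterol acts in the opposite direction through the nuclear receptor LXR, which turns on efflux transporters. T cells that are stimulated to divide are known to switch on SREBP target genes because they need new membrane.

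Sample titles and the design text name Th1 cells, but the fields for source and cell type read peritoneal macrophage. The 12 T cell markers examined had a median of 169 to 189 FPKM across the 4 libraries, and the 12 macrophage markers had a median of 0.0234 to 0.0663 FPKM, with 4 to 6 of them at 0. Csf1r, the gene of a growth factor receptor that defines macrophages, reached at most 0.135 FPKM. The summed level of the macrophage markers was 3.73 and 4.55 FPKM under PBS and 4.38 and 5.48 FPKM under IL-16. Most of it was Cd68, at 2.90 and 3.36 FPKM under PBS and 3.60 and 4.88 FPKM under IL-16. The 7 B cell markers summed to 4.20 and 4.94 FPKM under PBS and 2.86 and 3.01 FPKM under IL-16. The 7 dendritic cell markers summed to 9.98 and 11.1 FPKM under PBS and 8.82 and 8.48 FPKM under IL-16, mostly from Ccl22. Hepatocyte and adipocyte markers, which would mark the classical lipid-making tissues, summed to at most 0.417 FPKM. Library totals ran from 373924 to 391153 FPKM and the number of reads behind them is unknown. IL-16 replicate 2 stood farthest from the others: its median absolute log2 difference was 0.220 and 0.214 from the PBS libraries, against 0.150 and 0.145 for IL-16 replicate 1 and 0.0864 between the PBS libraries. Below, values without it are given for the 8 members whose log2 difference moved by more than 0.1 when it was left out.

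The 31 genes did not pass the test between IL-16 and PBS. None had an adjusted p under 0.05 in limma, where 26 of the 11882 tested rows (0.219%) did, and the smallest adjusted p among the 31 was 0.148, for Ebp. At an unadjusted p under 0.05 there were 4 (Nsdhl higher; Sqle, Ebp and Stard4 lower), against 23.4% of all tested rows (9.59% higher and 13.9% lower). The 31 log2 differences ran from -0.51 (Stard4) to 0.35 (Nsdhl) on the log2(FPKM + 1) scale, with a median of -0.042, and the median over all tested rows was -0.045. With libraries rescaled by median of ratios these medians were 0.0025 and -0.0041. That scaling by design brings the median over all rows near 0, and the median of the 31 moved with it. In bulk RNA a lower level cannot be told apart as fewer expressing cells or less RNA per cell.

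On the log2(FPKM + 1) scale, which is narrower than the ratio of FPKM for low genes, the 95% interval of the difference lay within 2-fold either way for all 31 genes (94.1% of tested rows) and within 1.5-fold for 25 (69.5% of tested rows). The 6 genes whose interval reached past 1.5-fold on that scale were Stard4, Ebp and Insig2 on the lower side and Nsdhl, Scd1 and Abca1 on the higher side. The values of the IL-16 libraries lay wholly above or wholly below those of the PBS libraries for 20 of the 31 genes, 8 higher and 12 lower. That separation also held for 58.9% of tested rows, 24.1% higher and 34.8% lower. The difference between groups was larger than both differences within groups for 13 of the 31 genes, against 44.3% of tested rows.

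**Figure D1:**
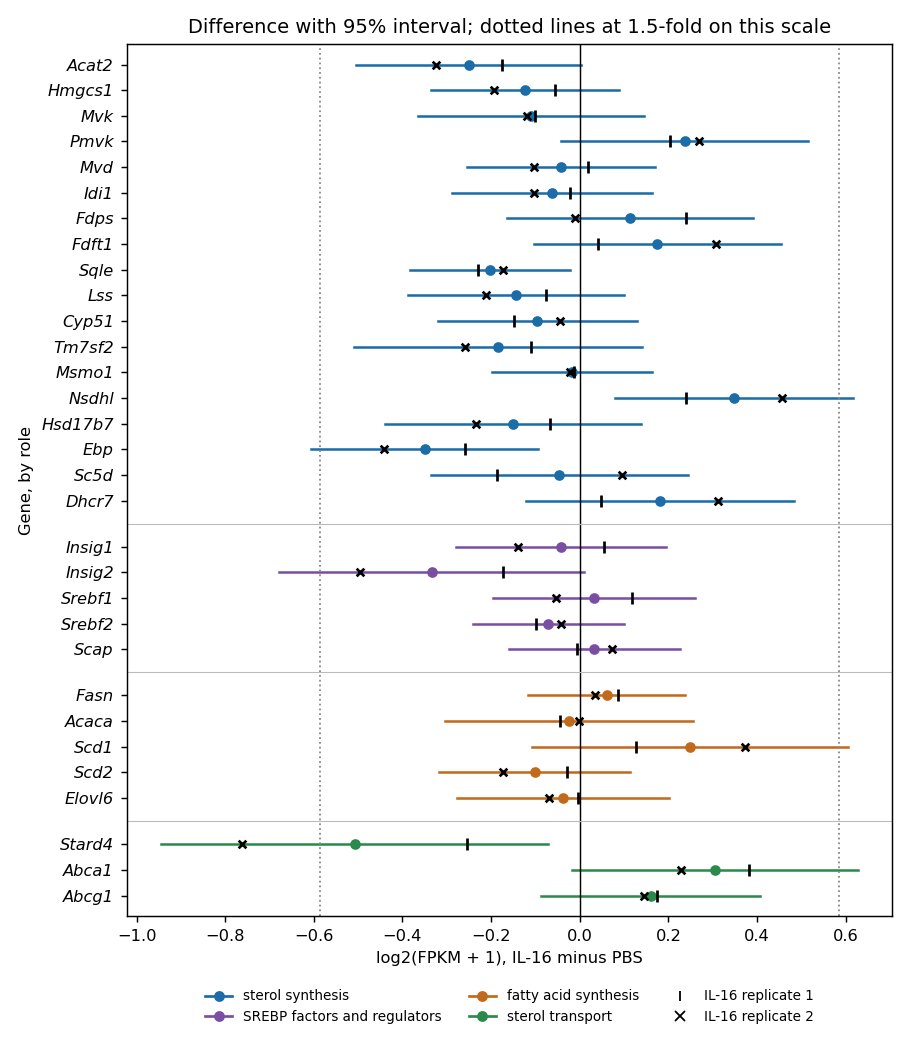
Difference between IL-16 and PBS for each of the 31 genes on the log2(FPKM + 1) scale, as the limma estimate (dot) with its 95% interval (line), and for each IL-16 library against the PBS mean (tick and cross). The dotted lines mark 1.5-fold on that scale, and 25 of the 31 intervals lie between them.

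**Figure D2:**
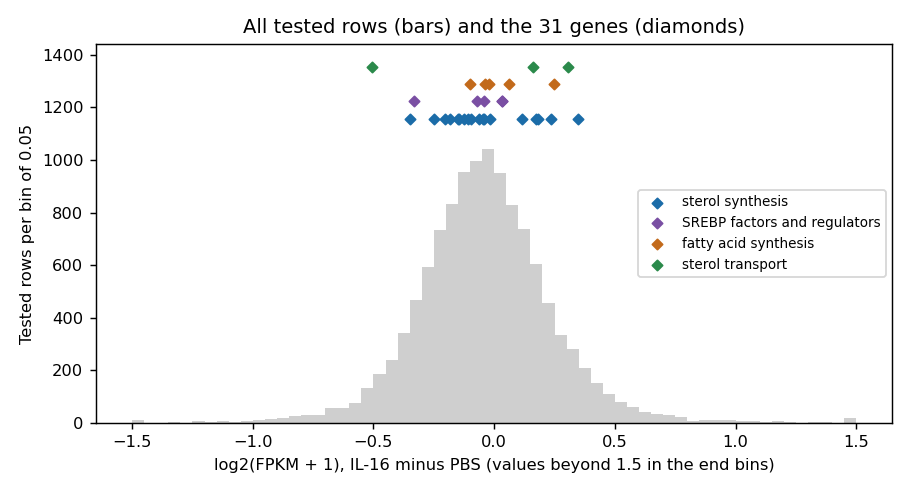
Distribution of the log2 difference between IL-16 and PBS over all 11882 tested rows (bars, left axis as rows per bin), with the 31 genes drawn as diamonds in a line per role above it; the height of the diamonds has no scale. The 31 values lie between -0.51 and 0.35, inside the body of the distribution.

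The levels of the 31 genes ranged from 2.31 to 273 FPKM. Scd2, a stearoyl-CoA desaturase, was the most abundant with a mean over groups of 273 FPKM, in the 98.4th percentile of tested rows. Srebf2 (94.3 FPKM), Fdps (75.6 FPKM) and Srebf1 (55.3 FPKM) came next, and these 4 were the only members at 50 FPKM or more. The other end held Scd1 (2.31 FPKM), Abca1 (2.34 FPKM), Tm7sf2 (3.31 FPKM), Hsd17b7 (4.44 FPKM) and Acaca (4.82 FPKM). In all, 23 of 31 (74.2%) stood at 10 FPKM or more, against 51.6% of tested rows.

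**Figure D3:**
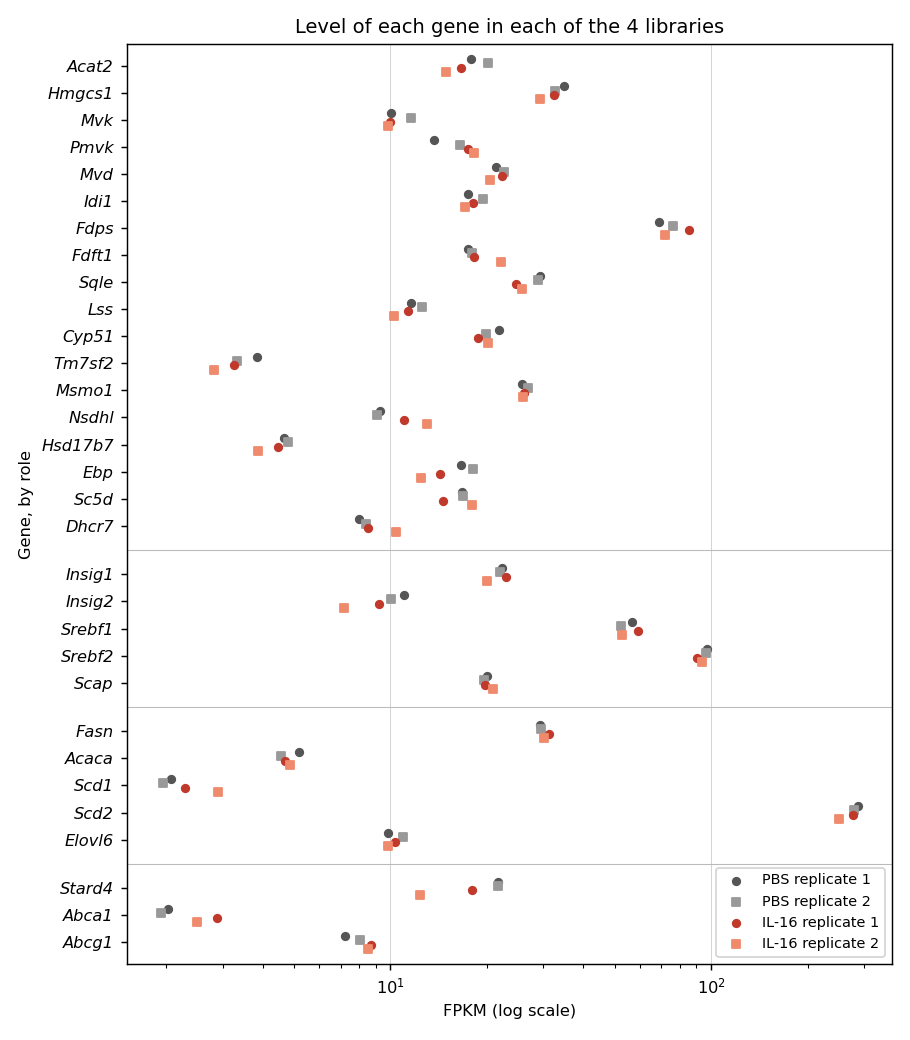
Level of each of the 31 genes in each of the 4 libraries, in FPKM on a log axis, with PBS libraries in grey and IL-16 libraries in red and genes grouped by role. Most genes have 4 points close together, and the ratio of group means is farthest from 1 for Stard4 (0.701), Abca1 (1.36) and Nsdhl (1.31).

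The early enzymes, which build the isoprenoid units, showed log2 differences from -0.25 to 0.24. Hmgcs1 encodes the HMG-CoA synthase that commits acetyl units to the mevalonate pathway. It stood at 34.8 and 32.7 FPKM under PBS and at 32.4 and 29.4 FPKM under IL-16. Both IL-16 values were lower, the nearest pair almost touching (log2 difference -0.12, SE 0.084, 95% interval -0.34 to 0.088, adjusted p = 0.406 in limma). Acat2, the cytosolic thiolase that supplies its substrate (not the sterol esterifying enzyme, whose gene is Soat2), read 17.8 and 20.1 FPKM under PBS and 16.7 and 14.9 FPKM under IL-16. The groups did not overlap and the difference of -0.25 did not pass (interval -0.50 to 0.0037, adjusted p = 0.217).

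Among the kinases and the decarboxylase that follow, Pmvk (phosphomevalonate kinase) was the one on the higher side. Its values were 13.6 and 16.5 FPKM under PBS and 17.4 and 18.3 FPKM under IL-16, and the gap between the PBS libraries was about as wide as the difference between groups (log2 difference 0.24, adjusted p = 0.262). Mvk (mevalonate kinase) had 10.03 and 11.6 FPKM under PBS against 9.98 and 9.85 FPKM under IL-16, with the nearest values nearly equal. The values of Mvd (the decarboxylase) and Idi1 (isopentenyl diphosphate isomerase) overlapped between groups, with log2 differences of -0.042 and -0.063. Fdps, farnesyl diphosphate synthase, was the most abundant sterol enzyme with 68.9 and 76.1 FPKM under PBS and 85.6 and 71.8 FPKM under IL-16. Its highest library was IL-16 replicate 1, while IL-16 replicate 2 lay between the PBS values.

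At the squalene steps the neighbouring enzymes lay on opposite sides. Fdft1, squalene synthase, read 17.5 and 17.97 FPKM under PBS and 18.3 and 22.2 FPKM under IL-16, so that its higher IL-16 mean came mostly from replicate 2 (log2 difference 0.18, adjusted p = 0.377). Sqle, squalene epoxidase, a rate-controlling enzyme of the later pathway, was 29.4 and 28.8 FPKM under PBS and 24.7 and 25.7 FPKM under IL-16. Both IL-16 values lay below both PBS values by more than either group's spread (0.865-fold, log2 difference -0.20, SE 0.071, interval -0.38 to -0.021). Over all rows it did not pass (adjusted p = 0.186). Lss, lanosterol synthase, differed by -0.14 (adjusted p = 0.402).

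The enzymes that turn lanosterol into cholesterol held both the highest and the lowest differences of the pathway. Cyp51 and Msmo1, which demethylate the sterol ring, overlapped between groups. Msmo1 had the smallest difference of the sterol enzymes, at 25.8 and 26.8 FPKM under PBS and 26.03 and 25.9 FPKM under IL-16, a log2 difference of -0.017 with an interval from -0.20 to 0.16. Nsdhl, a dehydrogenase of the same demethylation complex, stood at 9.27 and 9.11 FPKM under PBS and at 11.0 and 13.0 FPKM under IL-16. Both IL-16 libraries were above PBS, replicate 2 by more (1.31-fold, log2 difference 0.35, SE 0.11, interval 0.079 to 0.62, adjusted p = 0.157). Ebp encodes the sterol isomerase that moves the ring double bond. It read 16.6 and 18.1 FPKM under PBS and 14.3 and 12.5 FPKM under IL-16, with no overlap and again with replicate 2 farther from PBS (0.773-fold, log2 difference -0.35, SE 0.10, interval -0.61 to -0.094, adjusted p = 0.148). Nsdhl and Ebp therefore differed in opposite directions by about the same amount.

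Of the remaining late enzymes, Hsd17b7 (a sterol ketoreductase) and Tm7sf2 (a sterol reductase) were below PBS in both IL-16 libraries, by -0.15 and -0.18 (adjusted p = 0.453 and 0.418). Dhcr7, which completes one route to cholesterol, was 8.0002 and 8.39 FPKM under PBS and 8.51 and 10.4 FPKM under IL-16, nearly all of the difference lying in replicate 2. Sc5d, the desaturase before it, had the IL-16 libraries on either side of PBS (14.6 and 17.98 FPKM, against 16.7 and 16.8 FPKM). Over the 18 sterol enzymes, 5 had a log2 difference above 0 and 13 below (57.8% of all tested rows were below), with none past the threshold and a median of -0.080. Mvd and Msmo1 crossed to above 0 under median-of-ratios scaling, and Msmo1 also under rescaling to TPM. The summed level of the 18 enzymes was 349 and 365 FPKM under PBS and 358 and 346 FPKM under IL-16. The sum over these enzymes thus overlapped between the groups. Fdps was the largest part of it, with 68.9 and 76.1 FPKM under PBS and 85.6 and 71.8 FPKM under IL-16. Over all 31 genes the sum was 920 and 923 FPKM under PBS and 914 and 862 FPKM under IL-16, without overlap. IL-16 replicate 2 also had the lowest library total. Whether these sums differed beyond the spread was not tested.

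SREBP proteins act at sterol regulatory elements (SRE), usually with the CCAAT-binding factor NF-Y nearby, and the promoters of these genes are shown because the genes are described as a coordinately controlled set. Promoters of 24 of the 31 genes were in the RefSeq table of GRCm38.p6, as 32 stretches from 250 bases before to 50 bases after a start site; Fdps, Fdft1, Sqle, Scd1, Scd2, Stard4 and Abcg1 were not matched. The letters TCACCCC, the core of the classical SRE, sought on both strands without a mismatch, were found in 3 of the 32 stretches (9.38%) and in 4.97% of all 32851. The letters CCAAT, sought on both strands without a mismatch, were found in 20 of the 32 (62.5%) and in 37.4% of all. The E-box CACGTG was found in 7 of the 32 (21.9%) and in 7.15% of all. By gene, the SRE core, CCAAT and the E-box were found for 3, 19 and 6 of the 24. Some genes have several stretches, and those at nearby start sites share bases, so the 32 are not independent. A stretch without an exact match may still hold a variant of the site. The matches to the SRE core (in capitals) belong to the early synthase and to a pair of control genes. They are printed on the strand of the gene: chr13:119690199-119690235 (plus strand) for Hmgcs1, chr1:121327702-121327738 (minus strand) for Insig2, where the core lies on the opposite strand and reads GGGGTGA, and chr15:82147092-82147128 (plus strand) for Srebf2.
Hmgcs1: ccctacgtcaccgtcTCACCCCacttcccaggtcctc
Insig2: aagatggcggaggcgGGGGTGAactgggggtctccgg
Srebf2: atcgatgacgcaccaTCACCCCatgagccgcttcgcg
The log2 differences of these 3 genes between IL-16 and PBS were -0.12 (Hmgcs1), -0.33 (Insig2) and -0.071 (Srebf2), all below 0 and none past the threshold. Of the 31 genes 64.5% were below 0, and of all tested rows 57.8%.

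The whole stretches are given for Ebp, Nsdhl and Insig2, the genes with the largest differences on the log2(FPKM + 1) scale among those with a promoter in the table. As a ratio of mean FPKM, Abca1 (1.36-fold) differed more than these 3, and its promoter in the table holds no CCAAT match. Capitals mark CCAAT, which reads ATTGG where it lies on the other strand. The Insig2 stretch belongs to another start site of that gene than the one above. It was chosen because it holds the most CCAAT matches among the start sites of Insig2. The stretches are chrX:8193463-8193762 (minus strand) for Ebp, chrX:72918271-72918570 (plus strand) for Nsdhl and chr1:121332540-121332839 (minus strand) for Insig2.
Ebp: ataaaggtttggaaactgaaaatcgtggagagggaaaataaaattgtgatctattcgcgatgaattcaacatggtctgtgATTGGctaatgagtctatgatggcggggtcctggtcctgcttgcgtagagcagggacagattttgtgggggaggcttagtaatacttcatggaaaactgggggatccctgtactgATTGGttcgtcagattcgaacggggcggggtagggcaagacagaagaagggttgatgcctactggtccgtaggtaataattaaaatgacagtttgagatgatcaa
Nsdhl: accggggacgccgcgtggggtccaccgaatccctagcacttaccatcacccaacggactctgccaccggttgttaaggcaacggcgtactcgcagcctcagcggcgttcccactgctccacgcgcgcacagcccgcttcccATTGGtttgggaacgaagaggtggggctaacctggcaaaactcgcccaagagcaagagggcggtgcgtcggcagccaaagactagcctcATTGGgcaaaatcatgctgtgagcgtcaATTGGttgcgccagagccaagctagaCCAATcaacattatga
Insig2: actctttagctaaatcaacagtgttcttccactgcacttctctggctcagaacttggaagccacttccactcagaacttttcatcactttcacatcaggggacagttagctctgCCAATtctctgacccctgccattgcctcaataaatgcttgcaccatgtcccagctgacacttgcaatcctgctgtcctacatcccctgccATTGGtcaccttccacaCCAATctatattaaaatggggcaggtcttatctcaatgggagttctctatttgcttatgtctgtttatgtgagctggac
Ebp, on the lower side with IL-16, holds 2 CCAAT matches, and Nsdhl, on the higher side, holds 4. Insig2, on the lower side, holds 3 in the stretch chosen for them and 0 in each stretch at its other start sites.

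The SREBP genes themselves were abundant and nearly level. Srebf2, whose protein chiefly drives sterol genes, read 96.9 and 96.3 FPKM under PBS and 90.2 and 93.8 FPKM under IL-16 (log2 difference -0.071, interval -0.24 to 0.099, adjusted p = 0.546). Srebf1, whose products chiefly drive fatty acid genes, read 56.7 and 52.5 FPKM under PBS and 59.3 and 52.6 FPKM under IL-16, with overlapping groups (0.033, interval -0.19 to 0.26). Scap differed by 0.033 (interval -0.16 to 0.23). Per transcript length, Srebf2 exceeded Srebf1 in each library, by a ratio of 1.52 to 1.83. These are transcript levels, and the cleavage that activates the proteins was not measured.

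Both INSIG genes had log2 differences below 0, that of Insig2 farther from 0, and their intervals overlapped. Insig1, itself a classical SREBP target, overlapped between groups with 22.3 and 21.9 FPKM under PBS and 23.0 and 19.96 FPKM under IL-16 (log2 difference -0.042, interval -0.28 to 0.19). Insig2, which is not regulated in the same way, was 11.0 and 10.03 FPKM under PBS and 9.22 and 7.17 FPKM under IL-16. Both IL-16 libraries were lower, replicate 2 by far more (0.778-fold, log2 difference -0.33, SE 0.14, interval -0.68 to 0.010, adjusted p = 0.221). The Insig1 to Insig2 ratio was 2.02 and 2.19 with PBS and 2.50 and 2.78 with IL-16, without overlap. Whether that ratio differed beyond the spread was not tested.

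The 5 fatty acid synthesis genes had a median log2 difference of -0.023, with 2 above 0 and 3 below. Fasn, fatty acid synthase, read 29.2 and 29.6 FPKM under PBS and 31.3 and 30.1 FPKM under IL-16 (log2 difference 0.061, interval -0.12 to 0.24, adjusted p = 0.623). Acaca, the acetyl-CoA carboxylase that makes malonyl-CoA, was 5.18 and 4.56 FPKM under PBS and 4.69 and 4.86 FPKM under IL-16 (-0.023, interval -0.30 to 0.26). Elovl6, which elongates palmitate, overlapped between groups with a difference of -0.037.

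The desaturase paralogues differed far more from each other than either did between groups. Scd2 had 286 and 279 FPKM under PBS and 277 and 250.3 FPKM under IL-16 (log2 difference -0.10, adjusted p = 0.496). Scd1 had 2.08 and 1.96 FPKM under PBS and 2.29 and 2.91 FPKM under IL-16, with both IL-16 values higher (1.29-fold, log2 difference 0.25, interval -0.11 to 0.61, adjusted p = 0.332). Scd2 exceeded Scd1 138- and 142-fold with PBS and 121- and 86.2-fold with IL-16. The sequences of these paralogues are similar, so that a small share of Scd2 reads assigned to Scd1 would weigh on the low Scd1 values. No source used here says how the authors treated such reads.

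Sterol transport held the gene with the largest difference of the set. Stard4, a soluble carrier that moves cholesterol between membranes and is induced when sterols are scarce, was 21.6 and 21.7 FPKM under PBS and 18.02 and 12.4 FPKM under IL-16. The PBS values were almost identical and both IL-16 values were lower, but the gap between the IL-16 replicates, 0.51 on the log2 scale, was as wide as that between the groups. The fitted difference was -0.51 (0.701-fold, SE 0.17, interval -0.94 to -0.072, adjusted p = 0.178). Without IL-16 replicate 2 it was -0.25, and without IL-16 replicate 1 it was -0.76.

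The LXR-driven efflux transporters lay on the other side. Abca1, which passes cholesterol to lipid-poor apolipoproteins, was 2.03 and 1.93 FPKM under PBS and 2.89 and 2.49 FPKM under IL-16, with no overlap (1.36-fold, log2 difference 0.30, SE 0.13, interval -0.018 to 0.63, adjusted p = 0.229). Abcg1, which passes it to larger lipoprotein particles, was 7.20 and 8.02 FPKM under PBS and 8.71 and 8.52 FPKM under IL-16, also with no overlap (1.13-fold, log2 difference 0.16, adjusted p = 0.363). Unlike Stard4, both transporters were at least as far from PBS in IL-16 replicate 1 as in replicate 2.

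The number of rows that passed changed most when IL-16 replicate 1 was left out, over the whole table as among the 31 genes. When IL-16 replicate 1 was left out, so that IL-16 replicate 2 alone stood against PBS and was assumed to vary like the PBS libraries, 4 of the 31 genes passed: Nsdhl was higher, and Ebp, Insig2 and Stard4 were lower (adjusted p = 0.0402, 0.0438, 0.0472 and 0.0121 in limma). In that fit 17.4% of all tested rows passed. Without IL-16 replicate 2 none of the 31 passed and 0.446% of all rows did, and without either PBS library none of the 31 passed and 0.0757% of all rows did. For 21 of 31 genes (67.7%) replicate 2 lay farther from the PBS mean than replicate 1, as for 67.2% of tested rows. Both IL-16 libraries lay on the same side of the PBS mean for 25 of 31 genes (80.6%), near the 75.3% of all tested rows; 17 lay below (54.8%, against 43.6%) and 8 above (25.8%, against 31.6%). Without IL-16 replicate 2 the log2 difference was -0.25 for Stard4, -0.17 for Insig2, -0.19 for Sc5d and 0.042 for Fdft1. It was 0.049 for Dhcr7, 0.24 for Fdps, 0.13 for Scd1 and 0.24 for Nsdhl. Ribosomal protein rows made up 16.1% of summed FPKM in either PBS library, against 14.7% (IL-16 replicate 1) and 13.0% (IL-16 replicate 2). With those rows removed and the libraries rescaled, none of the 31 genes passed, and the differences of Ebp and Stard4 were -0.36 and -0.52.

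**Figure D4:**
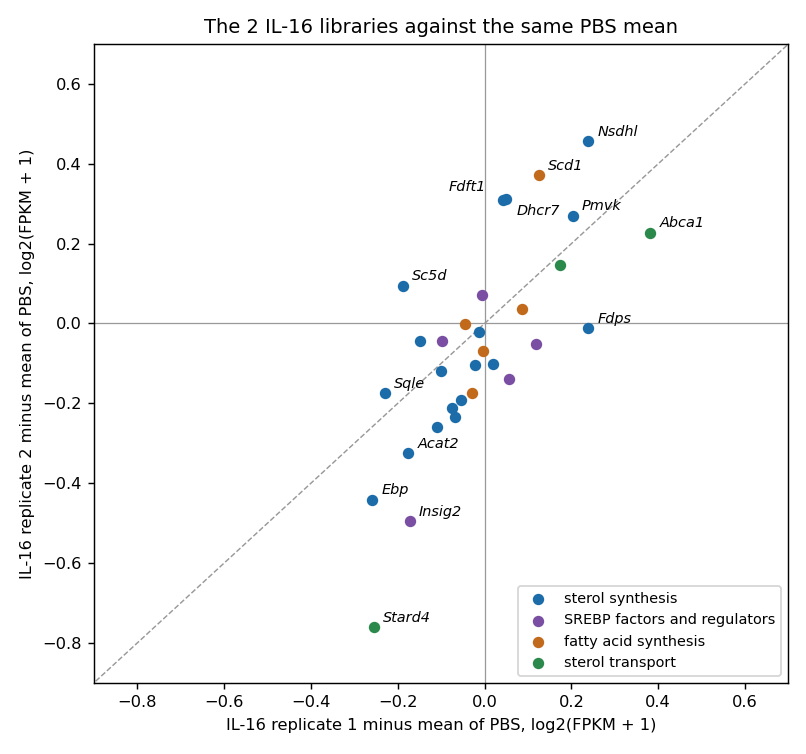
Log2 difference of each IL-16 library from the mean of the PBS libraries for the 31 genes, replicate 1 on the x axis and replicate 2 on the y axis, coloured by role, with the line of equality dashed. Stard4, Insig2, Ebp and Nsdhl lie farther from 0 in replicate 2, while Fdps and Sc5d have a different sign in each replicate; both axes share the same PBS mean.

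Genes around the pathway were read from lists beyond the 31, and again none passed over all rows. In the LXR list 9 of 10 genes were tested. Its receptor gene Nr1h2 was 60.7 and 59.9 FPKM under PBS and 71.3 and 69.4 FPKM under IL-16 (log2 difference 0.22, adjusted p = 0.153). Mylip, an LXR target whose product marks lipoprotein receptors for degradation, was 6.06 and 6.14 FPKM under PBS and 9.43 and 10.1 FPKM under IL-16 (1.60-fold, log2 difference 0.60, SE 0.093, interval 0.37 to 0.83, adjusted p = 0.0849). Both IL-16 values exceeded both PBS values by far more than the spread within groups. Rxrb, a partner receptor of LXR, differed by -0.31 (adjusted p = 0.240), and the median of the list was -0.023.

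Of the 18 genes with the smallest p in these lists, 3 from each, a gene of fatty acid desaturation had the largest log2 difference. Of 16 tested genes of fatty acid supply, elongation and desaturation none passed, 7 were above 0 and 9 below, and the median was -0.028. The largest log2 difference of that list, 1.05, belonged to a gene outside its 3 with the smallest p. Fads2, a desaturase of polyunsaturated fatty acids and an SREBP target, was 6.66 and 6.79 FPKM under PBS and 10.7 and 12.7 FPKM under IL-16 (1.74-fold, log2 difference 0.71, SE 0.11, interval 0.43 to 0.99, adjusted p = 0.0849). Tecr, the reductase that ends each elongation cycle, was 69.4 and 71.4 FPKM under PBS and 89.0 and 104.7 FPKM under IL-16 (0.45, adjusted p = 0.108). Lbr, the lamin B receptor with the same sterol reductase activity as Tm7sf2, was 86.3 and 82.2 FPKM under PBS and 66.4 and 58.0 FPKM under IL-16 (0.739-fold, -0.43, adjusted p = 0.106). Per transcript length Lbr was thus far more abundant than Tm7sf2 in each library.

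The remaining lists also centred below 0, as did all tested rows (median -0.045), and none of their genes passed. The 14 tested genes of SREBP proteases and related regulators had a median of -0.13, with 12 below 0, where 57.8% of all tested rows were below 0. Among them Mbtps1, the first SREBP-cleaving protease, was 30.8 and 30.3 FPKM under PBS and 27.7 and 24.5 FPKM under IL-16 (-0.22, adjusted p = 0.209) and the NF-Y subunit gene Nfyb differed by -0.25 (adjusted p = 0.172). The 14 tested genes of intracellular sterol handling had a median of -0.12, with 10 below 0. Stard3nl, an endosomal tether protein gene, was 13.3 and 10.6 FPKM under PBS and 7.77 and 6.40 FPKM under IL-16 (-0.68, adjusted p = 0.108), while the sterol carrier gene Gramd1b differed by -0.28 and the sterol esterifying gene Soat2 by -0.27 (adjusted p = 0.152 and 0.161).

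The isoprenoid branch uses pathway intermediates for protein prenylation, dolichol and ubiquinone. Its 13 genes had a median of -0.085, with 8 below 0, near the share of all rows. Rabggtb, a subunit of the enzyme that prenylates Rab proteins, was 32.1 and 29.4 FPKM under PBS and 23.7 and 23.8 FPKM under IL-16 (-0.36, adjusted p = 0.109). Nus1, needed for dolichol synthesis, differed by -0.35 and Coq2, needed for ubiquinone, by -0.26 (adjusted p = 0.122 and 0.195). The 16 tested genes of fatty acid oxidation, the opposing pathway, had a median of -0.11, with 12 below 0, and Hadhb, Echs1 and Acaa2 differed by -0.34, -0.49 and -0.43 (adjusted p = 0.117, 0.124 and 0.130). Without IL-16 replicate 1, Mylip and Fads2 passed (adjusted p = 0.0265 and 0.0166 in limma); both are named for their small p in the same libraries. Without IL-16 replicate 2, or without either PBS library, neither passed.

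Some of the values may hold reads of other genes or lack reads of their own. In the GENCODE vM21 annotation of GRCm38, exons of 10 of the 31 genes overlapped exons of another gene. No source used here says whether the counting used strand or how it treated reads shared by several genes. The overlap covered 77.4% of exon bases for Fdps (a second protein-coding gene model on the same strand), 20.9% for Fdft1 (Ctsb on the opposite strand), 18.6% for Scap and 16% for Hmgcs1. The overlap with other genes was at most 10.7% for the other 6, and Stard4, Nsdhl, Ebp, Insig2, Abca1 and Scd1 had none.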

How the data were processed

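The deposited table holds 1 value per gene and library for 4 bulk RNA-seq libraries of polyadenylated RNA. It names no unit. Its values were read as FPKM computed by the authors before they were deposited, because they are not whole numbers and the column totals are unequal. Per the submitters' processing notes, fastp, HISAT2, featureCounts and the build GRCm39 were used, without versions; the tool behind the values is not given in the sources used here. Low values showed no whole-read steps: at most 1.18% of ratios between libraries under 0.2 FPKM fell in 1 window of 0.5%. Depth is therefore unknown and no interval based on counting is given.

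Groups and replicate numbers came from the sample titles. Rows with at least 1 FPKM in at least 2 libraries were fitted with limma 3.58.1 in R 4.3.3 (mean-variance trend, log2(FPKM + 1), group as the sole term), two-sided, with Benjamini-Hochberg adjustment over 11882 rows and a threshold of 0.05. Log2 differences refer to log2(FPKM + 1) and so understate the changes of low genes, and folds are ratios of mean FPKM. The fit was tested on simulated data. The 31 genes, the lists and the tests were chosen with earlier results of these data known. Of each list beyond the 31, the 3 tested genes with the smallest p are named, apart from 1 gene that is not reported here. Promoter sequences are RefSeq's for GRCm38.p6, another build than that of the notes, and served for sequence alone. In all, 14 alternatives were run.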

Additional observations from a re-analysis of the deposited data

How the results depend on the processing

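With 4 libraries none of the 31 genes passed in limma (4 at an unadjusted p under 0.05), nor under the 10 alternatives that kept all libraries (the filter of 5 FPKM tested only 26 of the 31), and leaving out 1 library gave 0 to 4. Over all rows 26 genes passed. That count was 0 with no low-value filter (3068 had an unadjusted p under 0.05) and 0 without the trend (2620), 53 when libraries were scaled by median of ratios, 40 in TPM, 126 with copy rows summed, 40 without ribosomal protein rows and 9 to 2065 with 1 library left out. With the replicate number as a block it was 31, with 0 of the 31 members, and the block changed the call of no gene named here. The deviations of same-numbered libraries correlated at 0.0067 across rows. As each group gives a single such deviation per row, this cannot tell whether same-numbered libraries shared a mouse or a culture. Of 429 values of the members under alternatives 18 changed sign, and none of these passed. Under median-of-ratios scaling they were Mvd (0.0028), Msmo1 (0.028), Insig1 (0.0025), Acaca (0.015) and Elovl6 (0.0059), and in TPM Msmo1 (0.0099) and Acaca (0.00012). With 1 library left out the log2 difference ran across 0 for Mvd (-0.10 to 0.018), Idi1 (-0.14 to 0.0095), Fdps (-0.012 to 0.24), Msmo1 (-0.046 to 0.011), Sc5d (-0.19 to 0.095), Insig1 (-0.14 to 0.056), Srebf1 (-0.052 to 0.12), Scap (-0.0061 to 0.072), Acaca (-0.099 to 0.053) and Elovl6 (-0.10 to 0.031). The cause was not tested. Depth is unknown, and 6 of the 31 intervals did not exclude a 1.5-fold change on the log2(FPKM + 1) scale.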
